A study of Mus musculus with 6 samples.

Results

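The genes described here are 8 mouse genes of T cell costimulation and inhibition: Cd40, Cd80, Cd83, Cd86, Cd274, Pdcd1lg2, Icosl and Tnfsf9. They were taken by name from a list, chosen with earlier results of these data known. The probes of these genes were found through the RefSeq accession that the array design gives for each probe. The 8 genes, of 20284 genes matched on the array, were read by 9 of its 55681 probes: Cd80 had 2 and each other gene had 1. RNA was profiled in Tot2, a single line of myeloid progenitors that was established from an Irf8 knockout mouse, so every group lacks the normal Irf8 gene. The control group carried the empty retroviral vector MSCV-puro, the IRF8-labelled group carried MSCV-IRF8FLAG and the KLF4-labelled group carried MSCV-KLF4FLAG, the last 2 coding for FLAG-tagged transcription factors of the monocyte lineage. All 3 groups were grown with the cytokine GM-CSF at 5 ng/ml, were selected with 2 µg/ml puromycin from 48 hr after infection and were harvested on day 4. Each group has 2 arrays, 1 from each of 2 experiments that the design text calls independent, giving 6 arrays in all.

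Antigen-presenting cells send T cells a second signal beside the antigen itself. CD80 and CD86 bind CD28, which promotes T cell activation, and CTLA-4, which restrains it; the ligands of ICOS and of CD137 add further activating signals, whereas the PD-1 ligands, encoded by Cd274 (PD-L1) and Pdcd1lg2 (PD-L2), inhibit. CD40 is the receptor through which helper T cells activate the antigen-presenting cell, and CD83 is a surface protein of mature dendritic cells. Monocytes, macrophages and dendritic cells are known to carry these molecules at levels that depend on their state of activation.

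Levels are given as log2 of the processed spot intensity relative to the 75th percentile of the same array, so a level of 0 is the brightness of that percentile, and levels of different probes are not compared. That percentile lay at an intensity of 436 to 974, the share of probes well above background was 47.1% to 56.8% per array, and 0 spots were saturated. Differences were tested with a single limma fit over the 13247 genes whose signal stood well above background in any group, on both of its arrays, with Benjamini-Hochberg adjustment over all of them and a threshold of 0.05 on the adjusted p. Each SE is on the log2 scale with 2 arrays per group, whose small number limits the precision.

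The labels were checked first on the targeted genes. The level of Irf8 was 0.49 and 0.64 in control, 2.94 and 3.05 with the IRF8 label and 2.18 and 2.16 with the KLF4 label. The level of Klf4 was -1.62 and -1.28 in control, 4.46 and 4.61 with the IRF8 label and -1.56 and -1.33 with the KLF4 label, a KLF4-labelled difference from control of 0.00 ± 0.16 (SE, n = 2 per group, limma adjusted p = 0.987). The Klf4 probe thus goes against the KLF4 label, although the place of either probe on its transcript was not known here and neither was shown to detect the introduced sequence. The groups are named by their labels throughout, and every direction below rests on those labels. The line is labelled a myeloid progenitor: Mpo, a granule enzyme of myeloid progenitors, was at 9.39 and 8.79 on the control arrays, whereas the stem cell factor receptor Kit was not well above background on any array.

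All 8 genes were higher in the IRF8-labelled cells than in control, and 4 of them, Cd40, Cd274, Pdcd1lg2 and Tnfsf9, were also higher in the KLF4-labelled cells. Of all genes tested, 61.5% were called in the first of these comparisons (25.8% higher and 35.7% lower) and 19.2% in the second (10.4% higher and 8.86% lower). All 8 genes passed the filter on dim probes, but Cd40, Cd83, Cd86 and Tnfsf9 passed it only through groups in which they were high, so those 4 had to differ and the total of 8 is not read against the background. Adjusted p-values against a group in which a gene was dim carry the same limit, for these 4 and for other genes named below. The other 4, Cd80, Cd274, Pdcd1lg2 and Icosl, were well above background on all 6 arrays. Each of those 4 rose in the IRF8-labelled cells, where 23.3% of the 11665 genes above background on all arrays were called higher, and Cd274 and Pdcd1lg2 rose in the KLF4-labelled cells, where the corresponding figure was 8.26%. Both comparisons use the same control arrays. Because the genes were chosen with earlier results known, the shares of all genes are given beside them as description and not as a test.

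**Figure D1:**
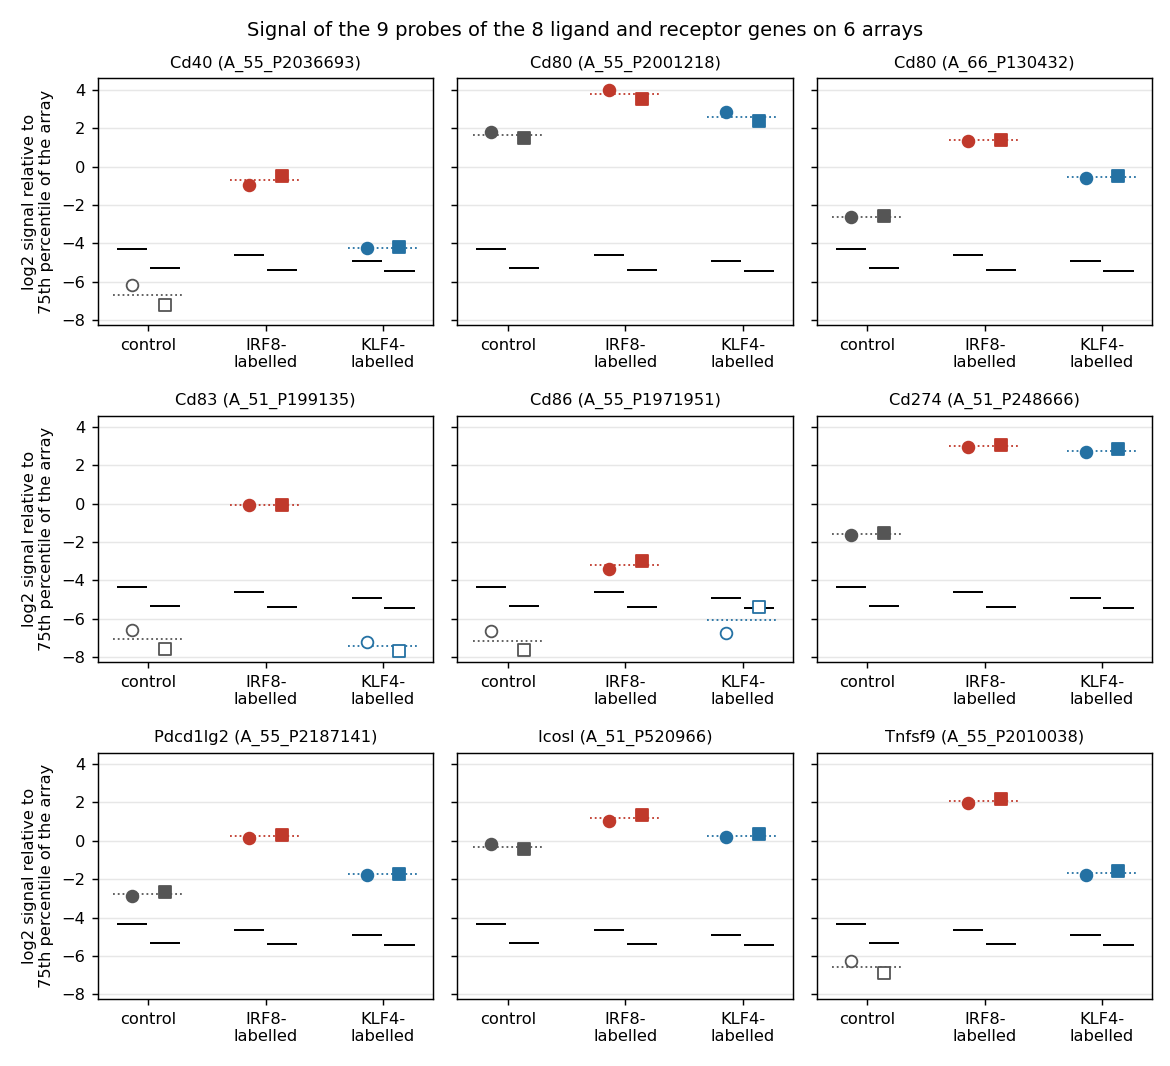
Level of the 8 genes by each of their 9 probes, Cd80 having 2 panels (log2 intensity relative to the 75th percentile of the array) in the 3 groups; circles are replicate 1 and squares replicate 2, open symbols are not well above background, short dashes mark the lowest signal well above background on that array and dotted lines the group mean. Cd274 is about as high on the KLF4-labelled as on the IRF8-labelled arrays, whereas Cd83 lies above background on the IRF8-labelled arrays alone; heights are comparable within a panel and not between panels.

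The PD-1 ligands Cd274 and Pdcd1lg2 are neighbours on chromosome 19, and their upstream sequences are shown because these genes lie side by side and both were higher in the transduced cells. The 250 bases before each start site, from RefSeq on GRCm38.p6, are chr19:29367188-29367437 for Cd274 and chr19:29410669-29410918 for Pdcd1lg2, both on the plus strand. Capitals mark matches to CACCC (a core bound by KLF factors) or to a loose NF-κB pattern (GGG, then any 5 bases, then CC) on either strand.
Cd274: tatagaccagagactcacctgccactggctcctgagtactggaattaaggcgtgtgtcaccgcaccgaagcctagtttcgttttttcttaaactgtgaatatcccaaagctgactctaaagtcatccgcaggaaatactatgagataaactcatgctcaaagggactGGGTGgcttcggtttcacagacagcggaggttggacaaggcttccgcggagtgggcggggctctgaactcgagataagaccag
Pdcd1lg2: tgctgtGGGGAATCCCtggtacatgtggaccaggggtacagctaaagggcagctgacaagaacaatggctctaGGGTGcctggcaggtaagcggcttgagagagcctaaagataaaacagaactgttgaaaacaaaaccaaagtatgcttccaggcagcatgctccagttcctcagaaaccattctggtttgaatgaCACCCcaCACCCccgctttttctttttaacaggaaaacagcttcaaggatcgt
The Cd274 window held CACCC once, as GGGTG (the minus strand's CACCC) from -83 to -79, counted from the start site. The Pdcd1lg2 window held CACCC at 3 places, starting at -177, -53 and -46, and the NF-κB pattern from -244 to -235, where the match reads on both strands. These are frequent patterns: of 32851 windows of this length upstream of mouse genes, 52.0% held CACCC and 45.8% held the NF-κB pattern. Neither window held the interferon-stimulated response element core (GAAA, any 2 bases, GAAA; in 2.98% of windows), the ETS and IRF composite element (GGAA, any 2 bases, GAAA; 2.30%), TTCNNNGAA (STAT element, 7.02%) or TATAAA (12.4%), all searched on both strands. The windows of Cd80 on chromosome 16 and of Icosl on chromosome 10 also held both CACCC and the NF-κB pattern, in Cd80 with matches of the 2 patterns overlapping, and none of the last 4 patterns. No window was available for Cd40, Cd83, Cd86 or Tnfsf9, so those genes were not searched. A match describes the letters in the window and was not tested as a binding site.

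Cd274 rose about as much with either vector, and it is the gene among the 8 whose 2 transduced groups lay nearest each other. Its level was -1.64 and -1.50 in control, 2.96 and 3.04 with the IRF8 label and 2.67 and 2.86 with the KLF4 label. Both transduced groups stood clear of control, 23.8-fold higher for IRF8 (log2 difference 4.57 ± 0.11, limma adjusted p = 1.45e-05) and 20.3-fold higher for KLF4 (4.34 ± 0.11, limma adjusted p = 4.74e-05). The direct difference of the IRF8-labelled from the KLF4-labelled cells was 0.23 ± 0.11 on the log2 scale, with a 95% interval from -0.05 to 0.51, and did not pass the test (limma adjusted p = 0.140). With the replicate number as a block it did (adjusted p = 0.0246), and it did narrowly with normexp background correction and quantile normalization (adjusted p = 0.0499).

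Pdcd1lg2 was graded: highest with IRF8, intermediate with KLF4 and lowest in control. Its level was -2.86 and -2.67 in control, 0.14 and 0.33 with the IRF8 label and -1.76 and -1.71 with the KLF4 label, with no overlap between groups. It was 7.96-fold higher with IRF8 than in control (log2 difference 2.99 ± 0.12, limma adjusted p = 4.96e-05), and the 2 experiments each gave a difference of 2.99. It was 2.04-fold higher with KLF4 (1.03 ± 0.12, limma adjusted p = 0.00520), a call lost when arrays were scaled to the spike-in probes (adjusted p = 0.121). IRF8-labelled cells exceeded KLF4-labelled cells 3.90-fold (1.96 ± 0.12, limma adjusted p = 3.26e-04).

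Around this pair, 8 genes in chromosomal order were read, of which 7 were tested. Upstream of Cd274, the cytokine receptor kinase Jak2 rose with IRF8 (2.16 ± 0.15, limma adjusted p = 2.70e-04) and differed by -0.13 ± 0.15 with KLF4 (limma adjusted p = 0.551). Insl6, a relaxin family gene, rose with both, by 2.90 ± 0.10 and 1.45 ± 0.10 (limma adjusted p = 3.72e-05 and 9.88e-04). Plgrkt, a plasminogen receptor and the next tested gene before Cd274, rose by 1.69 ± 0.15 and 0.63 ± 0.15 (limma adjusted p = 4.78e-04 and 0.0444). On the other side of Pdcd1lg2, Ric1 rose with IRF8 by 1.07 ± 0.09 (limma adjusted p = 4.81e-04), with a KLF4 difference of 0.34 ± 0.09 (limma adjusted p = 0.0621), and Ermp1 fell with IRF8 by 0.88 on the log2 scale (SE 0.23, limma adjusted p = 0.0214). Of the 7, Cd274 had the highest log2 difference in both comparisons with control.

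**Figure D2:**
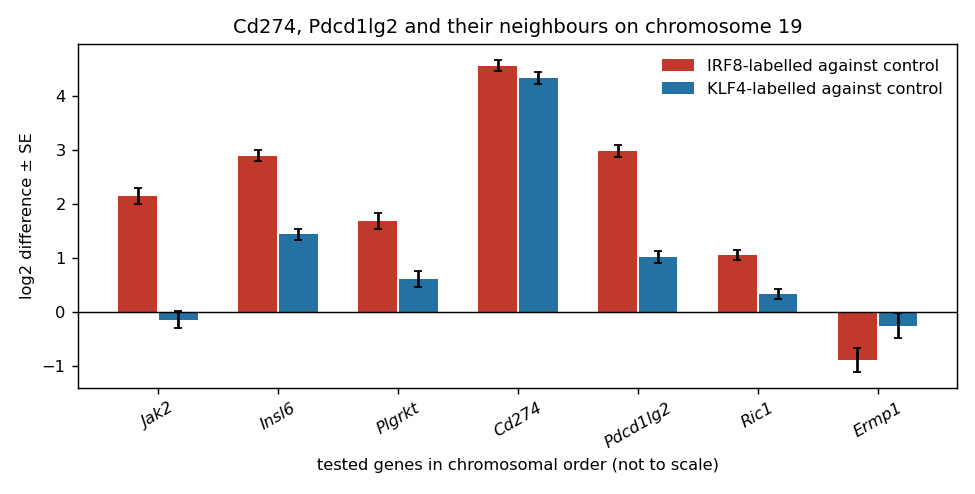
Log2 difference from control, with SE, of the tested genes in chromosomal order around Cd274 and Pdcd1lg2 on chromosome 19, for the IRF8-labelled and the KLF4-labelled cells. Cd274 at 4.57 and 4.34 stands above its neighbours with both vectors, whereas the IRF8 and KLF4 bars part at Pdcd1lg2 (2.99 and 1.03) and at Jak2 (2.16 and -0.13).

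The CD28 and CTLA-4 ligands Cd80 and Cd86 differed in whether control cells gave a measurable signal. Cd80, by its brighter probe (A_55_P2001218), had levels of 1.81 and 1.48 in control, 4.01 and 3.54 with the IRF8 label and 2.84 and 2.36 with the KLF4 label. The groups did not overlap, and within each group replicate 1 was the higher. IRF8-labelled cells exceeded control 4.37-fold (2.13 ± 0.25, limma adjusted p = 0.00131). The difference with KLF4 was 0.96 ± 0.25 on the log2 scale, with a 95% interval from 0.32 to 1.59, and missed the threshold (limma adjusted p = 0.0561). With the replicate number as a block it passed (adjusted p = 0.00334), the 2 experiments giving 1.03 and 0.88, and it also passed in 6 other alternatives, with adjusted p from 0.00176 (the mean of both probes) to 0.0448. IRF8-labelled exceeded KLF4-labelled cells 2.25-fold (1.17 ± 0.25, limma adjusted p = 0.0143), a call lost without IRF8 replicate 1 (adjusted p = 0.0584) or without KLF4 replicate 2 (0.0661).

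The dimmer Cd80 probe (A_66_P130432) gave the same order of groups with larger differences. Its levels were -2.64 and -2.58 in control, 1.36 and 1.40 with the IRF8 label and -0.59 and -0.47 with the KLF4 label. Fitted by itself, it was 15.9-fold higher with IRF8 (3.99 ± 0.09, limma adjusted p = 1.33e-05) and 4.23-fold higher with KLF4 (2.08 ± 0.09, limma adjusted p = 2.07e-04), and the 2 transduced groups differed 3.75-fold (1.91 ± 0.09, limma adjusted p = 2.05e-04). The probes disagree in the size of every difference and in whether the KLF4 difference was called. Both carry the same accession, and the transcript region read by each was not known here.

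Cd86 was well above background on the IRF8-labelled arrays alone, at -3.42 and -2.99. The control arrays read -6.64 and -7.62 and the KLF4-labelled arrays -6.72 and -5.39, none of them well above background. The rise with IRF8 was at least 3.04-fold, where the dim group is set at the lowest signal well above background on its arrays, or at the probe's own signal if higher (measured log2 difference 3.92 ± 0.54, limma adjusted p = 0.00240). Against KLF4-labelled cells it was at least 3.87-fold (2.85 ± 0.54, limma adjusted p = 0.010), a call lost with normexp correction and 75th percentile scaling (adjusted p = 0.0549). No fold is given for KLF4 against control, where both groups were dim (limma adjusted p = 0.212).

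Icosl, the ligand of ICOS, had the smallest measured IRF8 difference of the 8, although with normexp correction that of Cd86 was smaller (1.13 against 1.45 with 75th percentile scaling). Its level was -0.15 and -0.45 in control, 1.01 and 1.36 with the IRF8 label and 0.19 and 0.35 with the KLF4 label. The groups did not overlap, and IRF8-labelled cells exceeded control 2.81-fold (1.49 ± 0.17, limma adjusted p = 0.00126). The KLF4 difference of 0.57 ± 0.17, with a 95% interval from 0.13 to 1.01, missed the threshold (limma adjusted p = 0.0767) and passed it in 1 alternative, normexp with quantile normalization (adjusted p = 0.0337). IRF8-labelled exceeded KLF4-labelled cells 1.89-fold (0.92 ± 0.17, limma adjusted p = 0.00946), a call lost with spike-in scaling (adjusted p = 0.169) or without KLF4 replicate 1 (0.0542).

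Tnfsf9, the ligand of the T cell receptor CD137, had the largest measured difference of the 8 with IRF8, and control cells gave no signal well above background. The control arrays read -6.27 and -6.87, the IRF8-labelled arrays 1.96 and 2.18, and the KLF4-labelled arrays -1.80 and -1.55. The rise was at least 118-fold with IRF8 (measured log2 difference 8.64 ± 0.23, limma adjusted p = 1.94e-05) and at least 8.79-fold with KLF4 (4.89 ± 0.23, limma adjusted p = 2.75e-04; 1.78 with normexp and 75th percentile scaling, adjusted p = 0.00560). IRF8-labelled and KLF4-labelled cells, both measurable, differed 13.4-fold (3.75 ± 0.23, limma adjusted p = 3.63e-04), and the 2 experiments gave log2 differences of 3.76 and 3.73.

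Cd40 followed the same order, from a control level below detection. The control arrays read -6.18 and -7.20, neither well above background, the IRF8-labelled arrays -0.94 and -0.49, and the KLF4-labelled arrays -4.27 and -4.21. The rise with IRF8 was at least 17.2-fold (measured log2 difference 5.98 ± 0.36, limma adjusted p = 1.67e-04), and IRF8-labelled cells exceeded KLF4-labelled cells 11.5-fold (3.53 ± 0.36, limma adjusted p = 0.00142). With KLF4 the rise over control was at least 1.49-fold (2.45 ± 0.36, limma adjusted p = 0.0128). That call was lost with normexp correction and 75th percentile scaling (adjusted p = 0.433), with a floor on dim signals (0.289), without KLF4 replicate 1 (0.0762) and without KLF4 replicate 2 (0.0840).

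Cd83 was measurable with IRF8 alone. The 2 IRF8-labelled arrays both read -0.09, whereas the control arrays read -6.59 and -7.56 and the KLF4-labelled arrays -7.18 and -7.68, none of these well above background. The rise with IRF8 was at least 26.5-fold over control (measured log2 difference 6.99 ± 0.35, limma adjusted p = 1.05e-04) and at least 34.0-fold over KLF4-labelled cells (7.34 ± 0.35, limma adjusted p = 2.10e-04). Cd83 and Cd86 entered the test through the IRF8-labelled arrays alone, so their p-values add no separate support for those rises. For KLF4 against control both groups were dim and no fold is given (limma adjusted p = 0.491). The measured differences of the 4 genes that were dim in control depend on how low signals were handled. With normexp and 75th percentile scaling the IRF8 difference was 5.09 for Tnfsf9, 3.48 for Cd83, 2.48 for Cd40 and 1.13 for Cd86. Each lies below the log2 value of the fold given as at least, which was 6.88, 4.73, 4.10 and 1.6 in that order. The KLF4 differences of Tnfsf9 and Cd40 also fell below their bounds with that setting. Folds given as at least, here and below, are therefore bounds within the main processing alone.

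Set directly against each other, IRF8-labelled cells were higher than KLF4-labelled cells for 7 of the 8 genes, all but Cd274. Of all genes tested, 50.5% were called in this comparison, 23.7% as higher with IRF8 and 26.8% as lower. Among the 4 genes above background on every array, 3 were called higher, and 22.4% of the 11665 such genes were, again given as description.

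**Figure D3:**
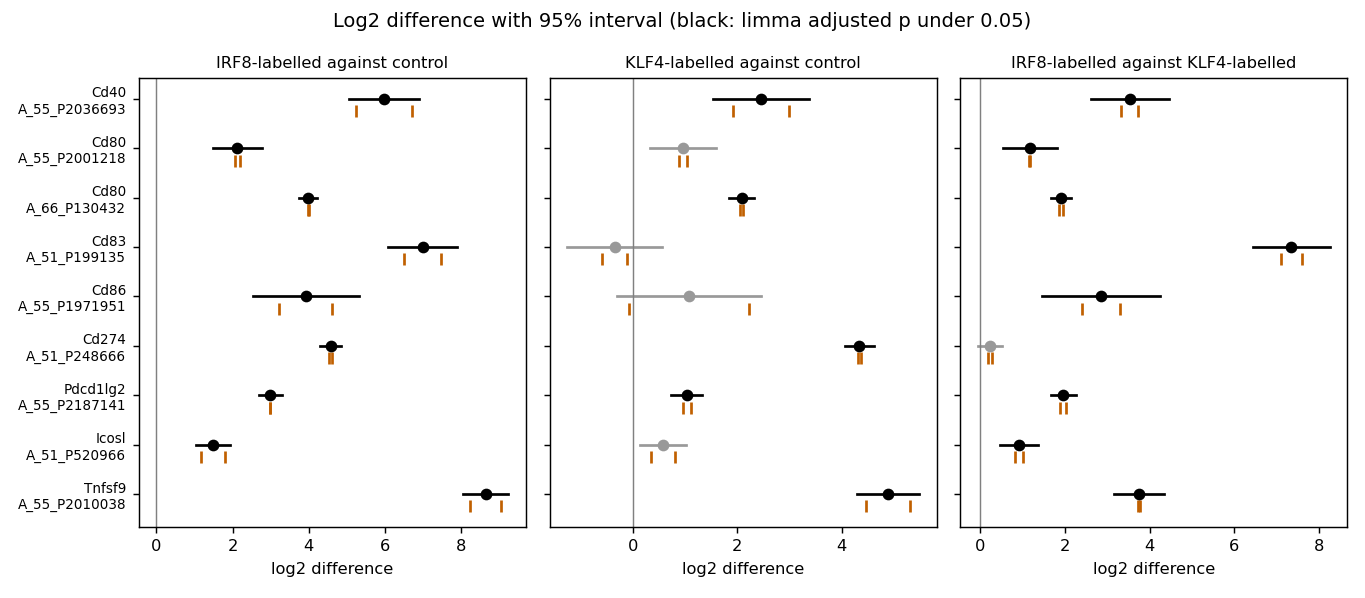
Log2 difference of each gene, Cd80 by both of its probes, in the 3 comparisons, with its 95% interval; black marks an adjusted p under 0.05, grey a difference that did not pass, and orange ticks the difference within each experiment. In the IRF8 against control panel all 8 genes lie above 0, from 1.49 for Icosl to 8.64 for Tnfsf9, and in the IRF8 against KLF4 panel Cd274 at 0.23 is the difference nearest 0.

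The 8 genes were compared over the 6 arrays by the root mean square difference between log2 levels after each gene was centred on its own mean. A value of 0 would be an identical pattern. Genes were not scaled, so this measure reflects the size of the changes as well as their shape. Cd80, by its brighter probe, and Icosl were nearest each other (0.40), followed by Cd80 and Pdcd1lg2 (0.48), whereas Cd274 and Icosl, also measured on all 6 arrays, lay 1.65 apart. The dimmer Cd80 probe, whose differences between groups were larger, was not compared in this way. The place of Cd80 thus rests on the brighter probe alone. The Pearson correlation of the pairs ran from 0.50 (Cd83 and Cd274) to 0.99 (Cd40 and Icosl, which lay 1.85 apart). For Cd40, Cd83, Cd86 and Tnfsf9 these differences and correlations rest in part on signals not well above background, so their exact size and rank are uncertain. Among the genes nearest to Cd274 over all genes tested were Gch1 (0.21), the entry enzyme of tetrahydrobiopterin synthesis, and Gpr137b (0.22), with differences from control of 4.92 and 5.04 with IRF8 and 4.41 and 4.45 with KLF4. Nearest to Pdcd1lg2 were Fam102a (0.06), Rap2a (0.08) and Epha2 (0.08). Nearest to Tnfsf9 were the interferon-inducible genes Ifi207 (0.16) and Ifi204 (0.34), with the scavenger receptor Msr1 (0.22) between them. Nearest to Cd83 were Pla2g7 (0.14), Tbc1d9 (0.23) and the receptor kinase Axl (0.25).
For Cd40 the nearest genes were the ectonucleotidase Entpd1 (0.26), Tarm1 (0.28) and Trim36 (0.31), and for Cd86 the chemotactic receptor Gpr183 (0.21), Mgarp (0.21) and the chemokine receptor Ccr1 (0.26). For Cd80, by its brighter probe alone, they were Laptm5 (0.10), Alox5ap (0.13) and Junb (0.14), and for Icosl they were Akap17b (0.12), Tcta (0.12) and Eepd1 (0.13). All points share the same 6 arrays in 3 groups, so these are descriptions.

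Other genes of the pathway were read in 7 lists, given as counts and medians beside the median log2 difference of all genes, which was -0.13 for IRF8 against control, -0.16 for KLF4 against control and -0.01 for IRF8 against KLF4. Of all genes tested, 61.5%, 19.2% and 50.5% were called in these comparisons, in that order. With the replicate number as a block 9950, 6744 and 8910 of 13247 were called, and with spike-in scaling 4638, 869 and 2683. Median scaling called 7525, 1459 and 5923. A list count near these shares is not read as a result about the list. Members of the CD40 and NF-κB list carry signals downstream of CD40. With IRF8, 12 of its 21 tested genes rose and 5 fell (median 0.87), and with KLF4 11 rose and 10 did not pass (median 0.61). Blocking on the replicate number, 19 genes were called with IRF8, 13 of them higher, and 15 with KLF4, 12 of them higher, so that some genes of the list were also lower with KLF4; with spike-in scaling 11 and 7 were called. Traf1, an adaptor of TNF receptors, read -4.65 and -5.55 in control (not well above background), 0.26 and 0.26 with IRF8 and -0.32 and -0.34 with KLF4, at least 33.6-fold and 22.4-fold higher (limma adjusted p = 1.33e-04 and 6.60e-04). The NF-κB subunit Relb rose by 2.33 ± 0.13 and 2.23 ± 0.13 (limma adjusted p = 1.34e-04 and 5.32e-04). Nfkbie, an inhibitor of NF-κB, rose by 2.78 ± 0.08 with IRF8 (limma adjusted p = 2.35e-05), as did the adaptor Traf5 by 2.78 ± 0.10 (4.61e-05). The inhibitors Tnfaip3 and Nfkbia rose with KLF4 by 2.40 ± 0.21 and 2.06 ± 0.19 (limma adjusted p = 0.00213 and 0.00253). Between the vectors, 4 of 21 were higher with IRF8 and 4 lower (median 0.10; 12 called with the block, 2 with spike-in scaling), among them the kinase Map3k14, higher by 1.09 ± 0.12 (limma adjusted p = 0.00167), and Nfkbiz, which was lower with IRF8 (-1.98 ± 0.13, limma adjusted p = 3.97e-04).

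In the list of interferon-γ receptor, STAT and IRF genes, which regulate PD-L1 in other settings, 11 of 16 rose with IRF8 and 5 did not pass (median 1.72, or 1.49 with the gene that was dim in control at its bound). With KLF4 7 rose and 9 did not pass (median 0.22). The blocked fit called 15 genes with IRF8, 13 of them higher, and with spike-in scaling 4 were called with KLF4. Irf5, a transcription factor of macrophages, rose 133-fold with IRF8 (7.06 ± 0.20, limma adjusted p = 2.18e-05) and 4.80-fold with KLF4 (2.26 ± 0.20, limma adjusted p = 0.00223). Irf4 was dim in control and rose at least 2.50-fold and 2.00-fold (limma adjusted p = 9.03e-04 and 0.00579). The cytokine signal inhibitor Socs3 rose by 2.78 ± 0.09 and 2.10 ± 0.09 (limma adjusted p = 3.37e-05 and 2.22e-04), Irf9 by 2.59 ± 0.14 with IRF8 (1.37e-04), and Irf7 by 2.04 ± 0.15 with KLF4 (0.00111). Between the vectors 9 of 16 were higher with IRF8 and 1 was lower (median 0.55), with 5 called under spike-in scaling. Irf2 was among the 9, by 1.62 ± 0.12 (limma adjusted p = 6.14e-04).

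**Figure D4:**
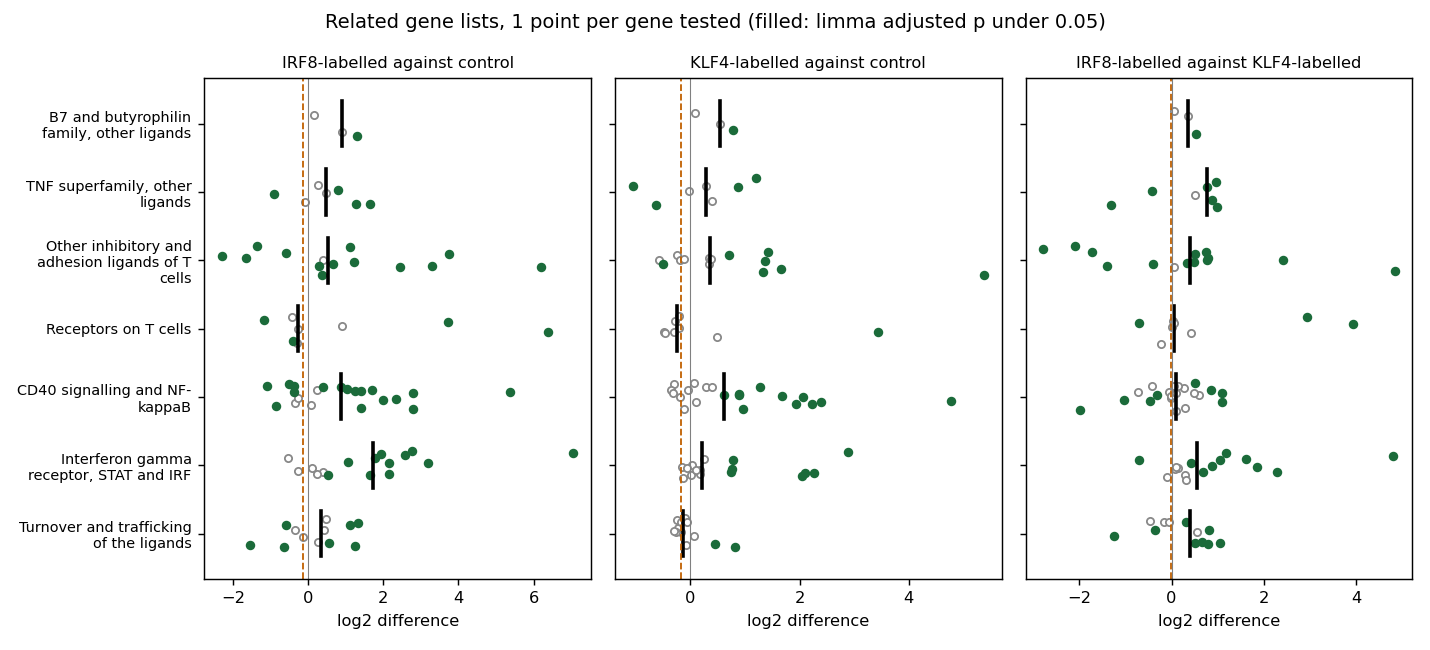
Log2 differences (horizontal axis) of the tested genes of the 7 pathway lists in the 3 comparisons, spread vertically at random within a list; filled points passed an adjusted p of 0.05, black bars are list medians and the dashed orange line is the median of all genes tested. The NF-κB list has medians of 0.87 and 0.61 against control and 0.10 between the vectors, and the interferon-γ, STAT and IRF list has medians of 1.72, 0.22 and 0.55.

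Most remaining ligands of the same families were dim. Of 7 other B7 and butyrophilin genes on the array 3 were tested, and Vsir, the gene of the inhibitory ligand VISTA, was the gene called: it rose by 1.30 ± 0.09 with IRF8 and 0.77 ± 0.09 with KLF4 (limma adjusted p = 2.73e-04 and 0.00643) and was higher by 0.52 ± 0.09 with IRF8 than with KLF4 (0.00794). The medians of these 3 were 0.90, 0.55 and 0.36, and with the replicate number as a block 2 were called in each comparison. Under spike-in scaling limma called 0 of the 3 for KLF4 against control (1 at an unadjusted p under 0.05), and under median or spike-in scaling 0 between the vectors (0 unadjusted), so those calls of Vsir were lost. Of 16 other TNF superfamily ligands 7 were tested, with medians of 0.48, 0.29 and 0.78. With IRF8 3 rose and 1 fell, with KLF4 2 rose (Tnf, and Tnfsf15, which was dim in both groups) and 2 fell, and 4 were higher and 2 lower with IRF8 than with KLF4. The inflammatory cytokine gene Tnf rose with both, by 0.79 ± 0.12 and 1.20 ± 0.12 (limma adjusted p = 0.00335 and 0.00343). Lta and Tnfsf15 rose with IRF8 from a dim control, at least 1.67-fold and 1.27-fold (limma adjusted p = 0.00217 and 0.00131). The lymphotoxin gene Ltb fell with IRF8 (-0.91 ± 0.11, limma adjusted p = 0.00129), and with KLF4 Tnfsf13b and Tnfsf14 fell (-1.06 ± 0.11 and -0.62 ± 0.10, limma adjusted p = 0.00351 and 0.0148). Without the 2 genes that were dim in both groups, the KLF4 median of this list was -0.02, of opposite sign. With spike-in scaling limma called 0 of the 7 for KLF4 against control (3 at an unadjusted p under 0.05) and 1 between the vectors.

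Among other inhibitory and adhesion molecules, 9 of 14 tested genes rose and 4 fell with IRF8 (median 0.53), 6 rose and 1 fell with KLF4 (median 0.37), and 8 were higher and 5 lower with IRF8 than with KLF4 (median 0.41). With the replicate number as a block 11 were called with KLF4, 9 of them higher, and between the vectors 6 were called with spike-in and 8 with median scaling, 3 of the 8 higher with IRF8. Cd200r1, an inhibitory receptor of myeloid cells, rose 73.9-fold with IRF8 (6.21 ± 0.10, limma adjusted p = 7.24e-06) and 2.58-fold with KLF4 (1.37 ± 0.10, limma adjusted p = 0.00121). Alcam, which binds CD6 on T cells, rose 13.4-fold with IRF8 (3.75 ± 0.11, limma adjusted p = 2.30e-05), and the integrin ligand Icam1 rose by 2.44 ± 0.21 and 1.67 ± 0.21 (5.10e-04 and 0.00833). The arginine-degrading enzyme Arg1 was dim in control and rose at least 2.94-fold with IRF8 and at least 12.5-fold with KLF4 (limma adjusted p = 2.05e-04 and 1.56e-04). Vcam1, an adhesion molecule, rose with KLF4 by 1.42 ± 0.10 (limma adjusted p = 0.00115) and was lower with IRF8 than with KLF4 (-2.78 ± 0.10, limma adjusted p = 1.31e-04).

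Of 15 receptors that bind such ligands on T cells, 8 passed the filter on dim probes and were tested, with medians of -0.27, -0.24 and 0.04. With IRF8 2 rose and 2 fell, with KLF4 1 rose, and 2 were higher and 1 lower with IRF8 than with KLF4. The blocked fit called 7 genes with IRF8, 3 of them higher, and 4 with KLF4, 2 of them higher. Havcr2 (TIM-3), which myeloid cells also carry, was dim in control and rose at least 18.97-fold with IRF8 and at least 2.49-fold with KLF4 (limma adjusted p = 1.09e-04 and 0.00291). Btla, an inhibitory receptor, rose at least 5.92-fold with IRF8 (limma adjusted p = 7.74e-04), and Tnfrsf18 and Cd5 fell (-1.18 ± 0.19 and -0.40 ± 0.12, limma adjusted p = 0.00428 and 0.0397).

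The last list was drawn up for the stability, trafficking and shedding of these ligands. Whether each of its genes, Trip13 among them, acts on the ligands was not tested here. Of 12 tested, 4 rose and 3 fell with IRF8 (median 0.34), 2 rose and 10 did not pass with KLF4 (median -0.13), and 6 were higher and 2 lower with IRF8 than with KLF4 (median 0.41). With the replicate number as a block 11 were called with IRF8, 7 of them higher, and 5 with KLF4, 2 of them higher. That fit called 9950 and 6744 of all 13247 genes in the same comparisons. With spike-in scaling 4 were called with IRF8, 1 between the vectors and, by limma, 0 with KLF4 (1 at an unadjusted p under 0.05). Cmtm6, whose product keeps PD-L1 at the cell surface, rose by 1.11 ± 0.14 with IRF8 (limma adjusted p = 0.00162) and differed by 0.07 ± 0.14 with KLF4 (0.723). The shedding protease Adam17 rose with both, by 1.33 ± 0.09 and 0.82 ± 0.09 (limma adjusted p = 2.13e-04 and 0.00430), as did the endosomal sorting gene Tsg101, by 1.24 ± 0.08 and 0.46 ± 0.08 (2.18e-04 and 0.0234). Trip13 fell with IRF8 (-1.55 ± 0.10, limma adjusted p = 2.08e-04), and Vps4a, of the same sorting pathway as Tsg101, was higher with IRF8 than with KLF4 by 0.81 ± 0.12 (0.00472).

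Markers of myeloid cell types moved with the same comparisons. Of 11 tested monocyte and macrophage markers, 11 rose with IRF8 (median 5.51) and 8 with KLF4 (median 2.40); the list's summed intensity, in units of the 75th percentile, was 31.6 to 37.4 in control, 596 to 714 with IRF8 and 181 to 182 with KLF4. Csf1r, the receptor of macrophage colony-stimulating factor, rose by 5.51 ± 0.09 and 3.79 ± 0.09 (limma adjusted p = 7.24e-06 and 4.32e-05), and Adgre1, a macrophage surface receptor, by 4.41 ± 0.24 and 2.87 ± 0.24 (1.26e-04 and 0.00176). Of 10 tested mature dendritic cell markers, 7 rose with IRF8 (median 1.36) and 3 with KLF4 (median 0.27). The summed intensity of this list was 21.9 to 28.6 in control, 53.1 to 60.6 with IRF8 and 27.4 to 33.2 with KLF4. Relb and Birc3 belong to this list and to the NF-κB list, and both were among the markers that rose with IRF8 and with KLF4. Ccr7, the lymph node homing receptor, was well above background on the IRF8-labelled arrays alone, at 2.28 and 2.70. In RNA of whole cultures, more cells of a type and more RNA per cell cannot be told apart, and the part of these markers in the ligand differences was not tested.

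Of 11 tested neutrophil markers 10 fell with IRF8, and with KLF4 5 fell and 1 rose, the summed intensity being 1159 to 1426 in control, 159 to 180 with IRF8 and 692 to 913 with KLF4. Of 10 progenitor markers 6 fell and 1 rose with IRF8 and 4 fell with KLF4, with sums of 1337 to 1815, 556 to 703 and 1006 to 1592. For lymphocytes, 6 of 13 T and natural killer cell markers and 3 of 9 B cell markers could be tested; with IRF8 1 rose and 2 fell, and 1 rose and 1 fell, and with KLF4 1 rose and 1 fell, and 1 rose and 2 fell. Their summed intensities were 8.85 to 8.92 and 0.915 to 1.01 in control, 12.2 to 12.7 and 1.64 to 1.66 with IRF8, and 6.84 to 8.43 and 0.640 to 0.659 with KLF4. The higher sums with IRF8 rested on Il7r of the T cell list and Blnk of the B cell list, both dim in control. With IRF8 Il7r read 2.54 and 2.67, and Blnk -0.11 and 0.02. Lck and Cd3d of the T cell list and Vpreb1 of the B cell list were the genes that fell with IRF8. Cd3g, Ncr1 and Ms4a1 were not well above background on any array, whereas Cd3e, Cd4, Lck and Prf1 of the T cell list and Cd22 and Vpreb1 of the B cell list were so on all 6. Of 4 tested basophil and mast cell markers 1 rose and 2 fell with IRF8 and 1 rose and 1 fell with KLF4, with sums of 5.21 to 5.30 in control, 2.65 to 3.17 with IRF8 and 5.17 to 6.34 with KLF4. Of 4 tested fibroblast markers 2 rose and 1 fell with IRF8 and 2 rose with KLF4, and the list's summed intensity was also higher in the transduced cells, 3.81 to 4.58 in control, 11.6 to 13.3 with IRF8 and 8.27 to 9.01 with KLF4. That sum was mostly Acta2, at levels of 1.82 and 2.10 in control, 3.49 and 3.71 with IRF8 and 2.61 and 2.75 with KLF4. Pdgfra, Pdgfrb, Dcn, Lum and Postn were not well above background on any array.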

How the data were processed

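Per the file headers, the authors' array files hold intensity of a single dye (Cy3), read by Agilent Feature Extraction 10.7.3.1 and already background-subtracted within each array; the deposited value table holds the same intensity times 1 factor per array. Control spots and spots with outlier marks were left out, replicate spots were averaged and the processed signal was put on a log2 scale relative to each array's 75th percentile, with the brightest probe per gene. Differences were tested in 1 fit of all 6 arrays with limma 3.58.1 in R 4.3.3 (3 residual degrees of freedom, 2-sided), which was tested on simulated data. Because the files hold no mean signal, the normexp alternative (offset 50) used the median signal. Replicate numbers were taken to mark the experiments, and deviations from group means correlated across genes at 0.282 to 0.391 between same-numbered arrays. The replicate 1 arrays were also all dimmer, with a 75th percentile of 436 to 551 against 852 to 974 for replicate 2. Whether that brightness gives the correlation was not tested, so the pairing is not settled. Differences given by experiment and the replicate block rest on it, and the main fit does not use it. Genes and lists were chosen with earlier results of these data known. The rule named all 8 ligand genes, up to 4 genes per pathway list and comparison (those past the threshold, without overlap of arrays, that changed most), the 3 nearest patterns per ligand gene, and Irf8, Klf4, Csf1r, Adgre1 and up to 2 markers per list, of which a few are not reported here; chromosome 19 neighbours and Cmtm6, Kit, Mpo, Relb's double listing and the lymphocyte markers were named after their values were seen. Alternatives were other scalings and background corrections, the deposited value table, other filters and probe rules, other limma settings, the replicate block and leaving out each array.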

Additional observations from a re-analysis of the deposited data

How the results depend on the processing

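Of 468 alternative values for the 24 differences of the 8 genes, 445 kept their direction and side of the threshold, 10 lost a call, 10 gained one and 3 changed sign. Those 3 were KLF4 differences from control with both groups dim, none called: Cd83 (-0.36) was 0.16 with normexp and quantile normalization and ran from -0.85 to 0.13 without 1 array, positive without control replicate 1, and Cd86 (1.07) was -0.35 with the floor. With genes required above background on all 6 arrays, 4 of the 8 remain in the test, of which 4 were called for IRF8 against control and 3 for IRF8 against KLF4. Leaving out 1 array gave 8 to 8 calls for IRF8 against control, 3 to 4 for KLF4 against control and 6 to 7 for IRF8 against KLF4; all other settings gave 4 to 8, 3 to 6 and 3 to 8. With the replicate block 8, 5 and 8 of the 8 genes were called, and none of their calls was lost. Over all genes, KLF4 against control gave 2547 calls (53.9% higher), but 1459 with median scaling (86.4%), 869 with spike-in scaling (89.4%), 987 with normexp and 75th percentile scaling (82.7%), 974 without a filter (84.7%), 1499 with only those groups fitted (74.0%) and 6744 with the block (32.4%), and 883 to 1499 without 1 array; the share was 67.1% with quantile normalization and 65.1% with the value table. Spike-in scaling gave 4638 calls in place of 8147 for IRF8 against control and 2683 in place of 6695 for IRF8 against KLF4, and moved the median of all genes from -0.13 to -0.26 and from -0.01 to -0.17; median scaling also moved the latter to -0.17. Signals near background limit Cd40, Cd83, Cd86 and Tnfsf9.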

Other observations

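Near 3 of the ligand genes lay genes with large differences, picked after their values were seen. Pla1a, a phospholipase gene near Cd80 on chromosome 16, differed from control by 7.53 on the log2 scale with IRF8 and by 9.0 with KLF4 (limma adjusted p = 5.30e-06 and 8.48e-06), and was lower with IRF8 than with KLF4 by a log2 difference of -1.47 (4.62e-04), the reverse of Cd80. Dennd1c, near Tnfsf9 on chromosome 17, rose by 4.95 and 2.58 (limma adjusted p = 7.24e-06 and 8.62e-05), whereas Tubb4a between them differed by -0.06 and 0.01 (0.634 and 0.966). Stfa3, near Cd86 on chromosome 16, was lower with IRF8 than in control (-4.43, limma adjusted p = 2.07e-05) and than with KLF4 (-6.11, 3.10e-05), and higher with KLF4 than in control (1.67, 0.00116); its probe may read other genes of the near-identical stefin family. Il7r, listed among the T cell markers, was dim in control and read 2.54 and 2.67 with IRF8 and -0.48 and -0.34 with KLF4, at least 171-fold and 21.2-fold higher (limma adjusted p = 6.33e-06 and 3.64e-05). The chemokine gene Ccl17, a mature dendritic cell marker, was well above background with IRF8 alone, at 3.77 and 3.64, and rose at least 342-fold over control (limma adjusted p = 1.08e-05).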
